A study of Mus musculus with 12 samples.

Results

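The AP-1 genes described here are 7 genes that encode subunits of the AP-1 transcription factor or a close relative of them: Fos, Fosb and Fosl2 of the Fos family, Jun, Junb and Jund of the Jun family, and Atf3 of the related ATF family. They were chosen by name from the gene symbols of the deposited tables, with earlier results of these data known. Counts and medians over them are therefore a description of a chosen set. All 7 were found among the 31766 genes listed for the dorsal or the ventral hippocampus. Fosl1, a further Fos family gene that the choice did not take in, had only 1 to 9 counts per sample.

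The study asked what loss of Tet3, a dioxygenase that oxidises 5-methylcytosine in DNA, does in neurons of the adult mouse brain. The knockout groups (cKO) had the genotype Tet3fl/fl; Camk2a-CreERT2, with floxed alleles from a C57BL/6N line and a single copy of a Cre from a B6;129S6 line. The control groups were homozygous for the same floxed alleles and carried no Cre, so that every group is floxed. The labels list the same tamoxifen course for all samples: 50 mg/kg given 2 times a day from 6 weeks of age for 5 days, and after 7 days without injection for 5 more days. The Camk2a promoter drives the Cre in excitatory neurons of the forebrain, whereas RNA came from whole macrodissected tissue of adults, in which the other cells keep Tet3. There were 4 groups of 3 samples: dorsal control (samples 41, 49 and 71), dorsal cKO (40, 43 and 64), ventral control (41, 49 and 50) and ventral cKO (40, 63 and 64). The labels do not state that these numbers are animals, and the tests below assume that no animal gave more than 1 sample to a group. Tests between regions and of the interaction also treat samples with the same number as independent, except where a block by number is named.

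AP-1 proteins bind DNA as pairs through a leucine zipper: Fos proteins pair with Jun proteins, whereas Jun proteins can also pair with each other. In hippocampal neurons Fos, Fosb and Junb are immediate early genes, transcribed for a short time after calcium entry and kinase signalling, and Fos is widely used as a mark of recently active cells. Jund and Fosl2 are expressed more steadily, Jun also responds to stress through the JNK kinases, and Atf3 is induced by injury.

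The promoters of Fos, Junb and Jun are shown because of the results below on these genes. Fos and Junb varied together over the ventral samples, in a correlation that passed by Pearson but not by Spearman after adjustment. Jun differed by region. The sequences are the 150 bases before the RefSeq start site on GRCm38.p6, 5′ to 3′ on the gene's strand, from chr12:85473740-85473889 (plus strand) for Fos, chr8:84978749-84978898 (minus strand) for Junb and chr4:95052223-95052372 (minus strand) for Jun. Capitals mark matches to TGACG (the core of the cyclic AMP response element, CRE), TGACATCA (an AP-1-like site) or TATAAA.
Fos: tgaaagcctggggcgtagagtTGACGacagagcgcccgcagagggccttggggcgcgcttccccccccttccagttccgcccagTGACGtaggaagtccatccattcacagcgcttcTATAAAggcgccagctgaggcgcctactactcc
Junb: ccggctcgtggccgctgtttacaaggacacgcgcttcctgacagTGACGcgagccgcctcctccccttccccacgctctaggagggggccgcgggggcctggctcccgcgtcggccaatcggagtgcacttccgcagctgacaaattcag
Jun: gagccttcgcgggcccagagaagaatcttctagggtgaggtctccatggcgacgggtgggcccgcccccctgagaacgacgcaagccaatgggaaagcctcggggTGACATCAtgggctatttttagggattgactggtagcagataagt

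All 7 genes had an entry in the RefSeq promoter table, and 250 bases before each start were searched on both strands. TGACG occurred in Fos at 129 to 125 and at 66 to 62 bases before the start, in Junb at 106 to 102, in Fosb at 60 to 56 and, on the opposite strand, in Atf3 at 7 to 3. Of 32851 promoters of the same length 17.8% held it. TGACATCA was found in Jun alone among the 7, at 45 to 38 bases before the start, and in 2.93% of all promoters. TATAAA was found in Fos alone among the 7, at 33 to 28, and in 12.4% of all promoters. The full CRE TGACGTCA, which contains TGACG (1.55% of promoters), the AP-1 site TGANTCA (6.75%) and the CArG box (1.47%) matched in none of the 7 windows, which says only that these letters are not in them.

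Libraries held 5.12 to 15.9 M counts per sample, summed over the runs of each, so that 1 count was worth 0.0629 to 0.195 CPM, the unit of counts scaled to library size. Because the assay takes a tag from the 3′ end of each transcript, CPM does not grow with transcript length, and levels of different genes are compared here on that scale. Tags from the 3′ end do not show the Fosb transcript from its shorter splice form (delta FosB), and in bulk tissue fewer cells of a type and less RNA per cell cannot be told apart. Tet3 itself was at 33.3 ± 4.25 CPM in the dorsal controls and 38.7 ± 5.39 in the dorsal cKO samples, and at 29.7 ± 5.52 (control) and 30.4 ± 5.0 (cKO) in the ventral groups (SD, n = 3). Tags from outside the floxed exons, whose position is not given in the sources used here, check nothing.

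By their mean over the 12 samples the AP-1 genes stood in the order Fosl2 (100.1 CPM), Jun (87.3), Junb (67.3), Jund (24.5), Fos (21.6), Fosb (5.80) and Atf3 (0.260). Neighbours in this order overlapped in their ranges over samples, as Fosl2 (79.0 to 120.4 CPM) did with Jun (60.8 to 115.0), and Jund (18.8 to 31.6) with Fos, except that every sample of Junb (39.8 or more) lay above every sample of Jund and every sample of Fosb (2.89 or more) above every sample of Atf3. Fos was the most variable of the 6 genes with more than 4 counts in every sample: its highest level was 12.4 times its lowest, against 3.17 times for Fosb, 2.08 for Junb, 1.89 for Jun, 1.68 for Jund and 1.52 for Fosl2.

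**Figure D1:**
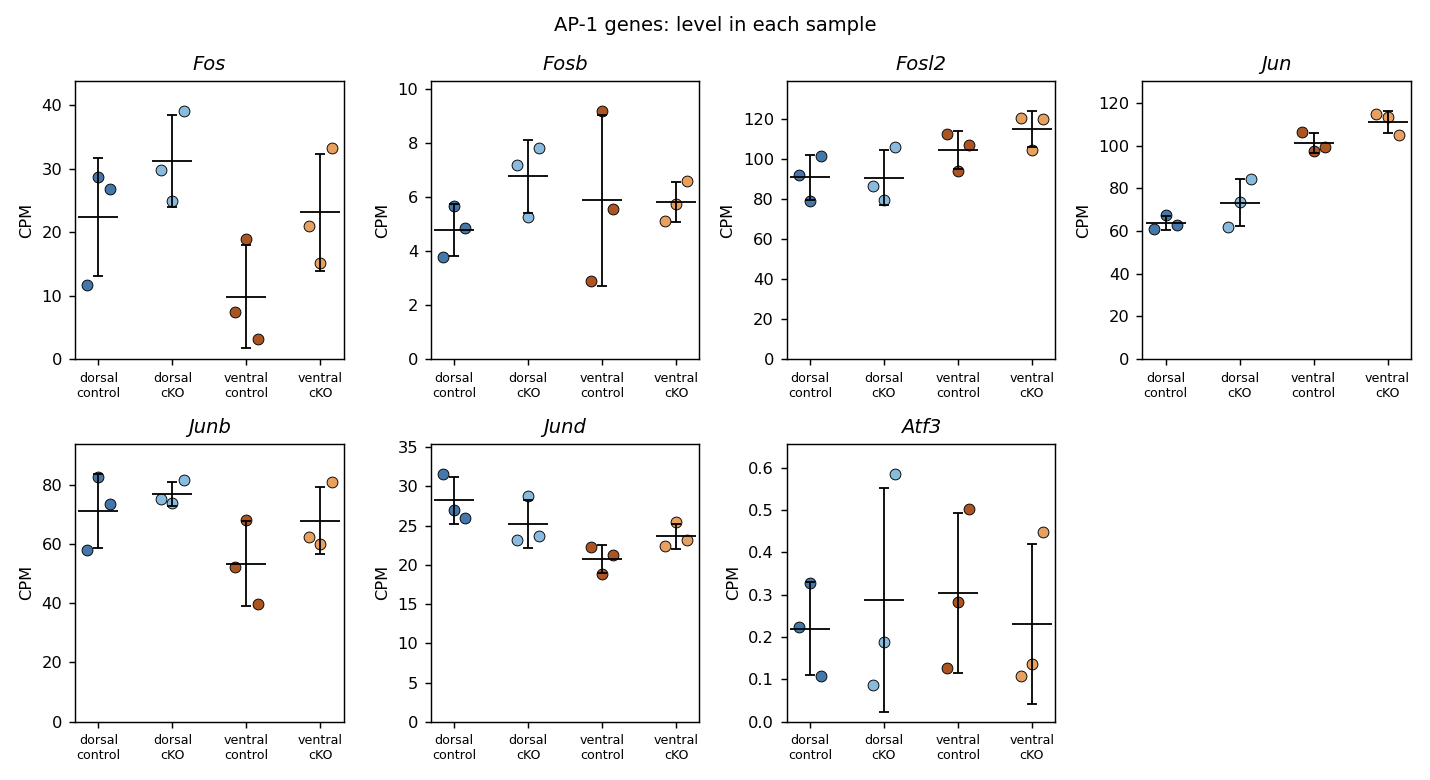
Level of each AP-1 gene in CPM (linear axes from 0), 1 panel per gene; points are the 12 samples by group, the horizontal line is the group mean and the bar the SD (n = 3). Jun is higher in every ventral sample (97.6 CPM or more) than in every dorsal sample (84.2 or less), and Fos spans 3.15 to 39.1 CPM.

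Fos (ENSMUSG00000021250; GRCm38 chromosome 12, 85473890 to 85477273, plus strand) encodes the inducible Fos subunit. In the dorsal hippocampus its level was 11.7, 28.6 and 26.8 CPM in controls 41, 49 and 71, and 29.8, 24.8 and 39.1 CPM in cKO samples 40, 43 and 64. Control 41 was low and cKO 64 high, and the groups overlapped. In the ventral hippocampus Fos was at 7.42, 18.9 and 3.15 CPM in controls 41, 49 and 50, and at 21.0, 15.1 and 33.2 CPM in cKO samples 40, 63 and 64. The 2 lowest Fos values of the series were those of ventral controls 41 and 50, while control 49 lay inside the cKO range, so these groups overlapped too.

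The ventral Fos means were 9.83 ± 8.16 CPM for controls and 23.1 ± 9.22 CPM for cKO (SD, n = 3), a log2 fold change of 1.30 ± 0.45 (SE; 2.46-fold) with a 95% interval of 0.31 to 2.28. It did not pass edgeR's quasi-likelihood test over 15102 genes (unadjusted p of 0.0143, Benjamini-Hochberg adjusted p = 0.622). The value rested on single controls: it was 2.04 without ventral control 49 (adjusted p = 0.359) and 0.91 without ventral control 50 (adjusted p = 0.782). Over all alternatives the adjusted p ran from 1.37e-10, with no filter on low counts, to 0.9999 with DESeq2. The fit with no filter used the same samples, whose groups overlapped, so its p is not read as a measure of the spread between samples. What made that p so small was not tested. Treating each run as a library of its own gave 1.37 (edgeR adjusted p = 0.0135). That setting counts runs of the same sample as replicates, so its p does not measure the spread between samples. In the authors' deposited table ventral Fos had a log2 fold change of 1.34 and a false discovery rate of 0.043 and was marked Up. A false discovery rate under 0.05 was given there for 543 of 29146 ventral genes, against 0 of 15102 called by edgeR here. That table holds a column per run, and how its fit treated runs of the same sample is not given in the sources used here. The dorsal Fos means were 22.4 ± 9.28 CPM for controls and 31.2 ± 7.24 CPM for cKO, a log2 fold change of 0.42 ± 0.24 (interval -0.09 to 0.94; edgeR adjusted p = 0.968). It was 0.12 without dorsal control 41, 0.26 without dorsal cKO 64 and at most 0.60 without any other sample. The genotype effects in the regions differed by 0.88 ± 0.58, which did not pass the edgeR test of the difference (adjusted p = 0.756), and which was 1.62 when ventral control 49 was left out, 0.51 for ventral control 50 and 0.56 for ventral cKO 64.

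The mean of Fos was lower in the ventral than in the dorsal hippocampus, with a log2 difference of -0.83 ± 0.29 averaged over genotypes (edgeR adjusted p = 0.068, 16414 genes). The difference was -1.26 ± 0.42 among controls (edgeR adjusted p = 0.0806) and -0.39 ± 0.39 among cKO samples. The value among controls ranged from -2.00 to -0.64 over 24 alternatives and passed under 7 of them, limma-voom (-1.51, adjusted p = 0.0392) among them. It also passed when ventral control 49 (-2.00) or dorsal control 41 (-1.56) was left out, whereas leaving out ventral control 50 gave -0.89 (edgeR adjusted p = 0.226). The ventral controls enter both the comparison of genotypes and that of regions, so these values are not independent. The dorsal sample had more Fos than the ventral sample at each of the 4 numbers shared by the regions: 11.7 and 7.42 CPM at number 41, 28.6 and 18.9 at 49, 29.8 and 21.0 at 40, and 39.1 and 33.2 at 64. The order of these 4 numbers by Fos was the same in both regions. The share of all genes with either pattern is not given here. With the number as a replicate block the region difference was -0.48 ± 0.12 and passed the test (edgeR adjusted p = 0.0203). That value rests on the 4 shared numbers, since a number found in 1 region has a level of its own. Ventral control 50, with the lowest Fos, thus adds nothing to it. The region difference also passed with the number as a random effect (-0.95, limma adjusted p = 0.024), with limma-voom and in run 1 alone. Leaving out dorsal control 41, ventral control 49 or ventral cKO 64 (-0.97, -1.19 and -0.99) had the same outcome. With no filter it passed as well, a setting whose p for Fos is not read as a measure of the spread between samples. The difference passed too with runs as separate libraries, a setting that counts runs of the same sample as replicates.

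Fosb (ENSMUSG00000003545; chromosome 7, 19302696 to 19310051, minus strand) encodes an inducible Fos protein whose short form accumulates with repeated activity. It was measured at 34 to 82 counts per sample. Its level was 3.79, 5.68 and 4.84 CPM in dorsal controls 41, 49 and 71 and 7.19, 5.25 and 7.82 CPM in dorsal cKO samples 40, 43 and 64. The dorsal groups overlapped by cKO 43 alone, and the log2 fold change was 0.45 ± 0.22 (interval -0.03 to 0.92; unadjusted p of 0.0653, edgeR adjusted p = 0.968). Ventral Fosb was at 2.89, 9.18 and 5.54 CPM in controls 41, 49 and 50 and at 5.10, 5.72 and 6.57 CPM in cKO samples 40, 63 and 64. The highest and the lowest Fosb level of the series were thus both ventral controls, the genotype difference was 0.07 ± 0.35, and the difference between regions was 0.01 ± 0.22.

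Fosl2 (ENSMUSG00000029135; chromosome 5, 32135801 to 32157842, plus strand), which encodes the Fos protein Fra-2, had the highest mean over the 12 samples. Its highest level was 1.52 times its lowest, the smallest such ratio of the 7 genes. Within each group, however, Jun had the smaller SD relative to its mean. It was at 91.8, 79.0 and 101.1 CPM in dorsal controls 41, 49 and 71 and at 86.3, 79.3 and 105.9 CPM in dorsal cKO samples 40, 43 and 64. Ventral values were 112.5, 94.1 and 106.7 CPM in controls 41, 49 and 50 and 120.4, 104.5 and 119.7 CPM in cKO samples 40, 63 and 64. The regions overlapped, with the ventral samples toward the top. The log2 difference between regions was 0.29 ± 0.08 and passed the test (edgeR adjusted p = 0.026), but the call was lost when any of 7 libraries was left out (dorsal cKO 40 or 43, dorsal control 49, ventral cKO 40 or 64, ventral control 41 or 50), with values of 0.23 to 0.28 and adjusted p of 0.0501 to 0.0805. Its genotype differences were -0.05 ± 0.12 in the dorsal and 0.16 ± 0.10 in the ventral hippocampus.

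Jun (ENSMUSG00000052684; chromosome 4, 95049034 to 95052222, minus strand, a gene of a single exon) encodes the founding Jun subunit. It was at 60.8, 67.5 and 62.8 CPM in dorsal controls 41, 49 and 71 and at 62.1, 73.4 and 84.2 CPM in dorsal cKO samples 40, 43 and 64. Ventral samples had 106.5, 97.6 and 99.4 CPM of Jun in controls 41, 49 and 50 and 115.0, 113.4 and 105.2 CPM in cKO samples 40, 63 and 64. All 6 ventral samples lay above all 6 dorsal samples, which held in the same direction for 3.33% of the 16414 genes. Jun rose from dorsal to ventral hippocampus by 0.65 ± 0.07 on the log2 scale (1.57-fold; interval 0.50 to 0.80; edgeR adjusted p = 4.13e-06), with 0.65 ± 0.10 in controls and 0.65 ± 0.10 in cKO samples (adjusted p = 0.00037 and 0.000408). It passed the test under each of the 24 alternatives, with values of 0.59 to 0.69. By genotype Jun differed by 0.16 ± 0.11 in the dorsal and 0.16 ± 0.09 in the ventral hippocampus, and the difference of these effects was 0.01 ± 0.14 (interval -0.29 to 0.30). The antisense gene Junos overlaps 689 bases of Jun at a distance of 2500 bases from the 3′ end of Jun, and its group means of 0.915 to 1.86 CPM were far below those of Jun.

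Junb (ENSMUSG00000052837; chromosome 8, 84974484 to 84978718, minus strand), an inducible Jun protein that activates transcription more weakly than Jun, was at 57.8, 82.5 and 73.5 CPM in dorsal controls 41, 49 and 71. It was at 75.2, 73.8 and 81.5 CPM in dorsal cKO samples 40, 43 and 64. Ventral values were 52.1, 68.2 and 39.8 CPM in controls 41, 49 and 50 and 62.4, 60.2 and 80.8 CPM in cKO samples 40, 63 and 64. As with Fos, ventral controls 41 and 50 were lowest, ventral control 49 lay among the cKO samples, and dorsal control 41 was the lowest dorsal sample. The ventral log2 fold change was 0.37 ± 0.17 (interval -0.01 to 0.75; unadjusted p of 0.0552, edgeR adjusted p = 0.695), and it was 0.57 when ventral control 49 was left out, 0.20 for ventral control 50 and 0.24 for ventral cKO 64. The dorsal one was 0.07 ± 0.11. The region difference was -0.29 ± 0.11 (edgeR adjusted p = 0.0929), and without ventral control 49 it was -0.39 and passed (adjusted p = 0.0148). In the authors' deposited table ventral Junb had a log2 fold change of 0.39 at a false discovery rate of 0.104.

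The gene Prdx2 on the opposite strand covers the last 351 bases of Junb, where the tags of Junb are expected, and reads of the pair cannot be told apart without a stated strand setting. Prdx2 had group means of 401.7 to 475.2 CPM. Its log2 differences were 0.17 ± 0.07 between regions, -0.10 ± 0.10 between ventral genotypes and 0.0048 ± 0.09 between dorsal genotypes, beside -0.29, 0.37 and 0.07 for Junb. The part of Prdx2 reads in the counts of Junb was not tested.

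Jund (ENSMUSG00000071076; chromosome 8, 70698949 to 70700616, plus strand, a single exon) encodes the most steadily expressed Jun protein. Its level was 31.6, 27.0 and 26.0 CPM in dorsal controls 41, 49 and 71 and 23.2, 28.8 and 23.6 CPM in dorsal cKO samples 40, 43 and 64. Its ventral levels were 22.3, 18.8 and 21.3 CPM in controls 41, 49 and 50 and 22.4, 25.5 and 23.2 CPM in cKO samples 40, 63 and 64. Every ventral cKO sample lay above every ventral control, by a margin of 22.4 over 22.3 CPM, which was so in this direction for 4.69% of the 16414 genes. The genotype differences were 0.20 ± 0.13 in the ventral and -0.19 ± 0.13 in the dorsal hippocampus, neither of which passed the test. The test of the difference between them gave 0.40 ± 0.18 (unadjusted p of 0.0463, edgeR adjusted p = 0.623). Among controls Jund fell by 0.46 ± 0.13 from dorsal to ventral hippocampus (edgeR adjusted p = 0.0375) with no overlap between the groups (11.8% of genes in this direction), and among cKO samples the difference was -0.06 ± 0.13. The call among controls was lost with the number as a replicate block (-0.53, adjusted p = 0.0747), in run 1 alone (-0.64, adjusted p = 0.125) and with runs as separate libraries (-0.47, adjusted p = 0.081). It was also lost without dorsal control 41 or 71 (-0.35 and -0.49) and without ventral control 49 or 50 (-0.40 and -0.48).

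Atf3 (ENSMUSG00000026628; chromosome 1, 191170296 to 191218039, minus strand) was near the limit of detection, with 1 to 4 counts in each sample and 0.0877 to 0.586 CPM. Its group means were 0.219 ± 0.110 CPM in the dorsal controls, 0.287 ± 0.264 in the dorsal cKO samples, 0.304 ± 0.190 in the ventral controls and 0.231 ± 0.189 in the ventral cKO samples. It did not pass the filter on low counts and was not tested, and a difference between groups was not detectable at this depth.

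**Figure D2:**
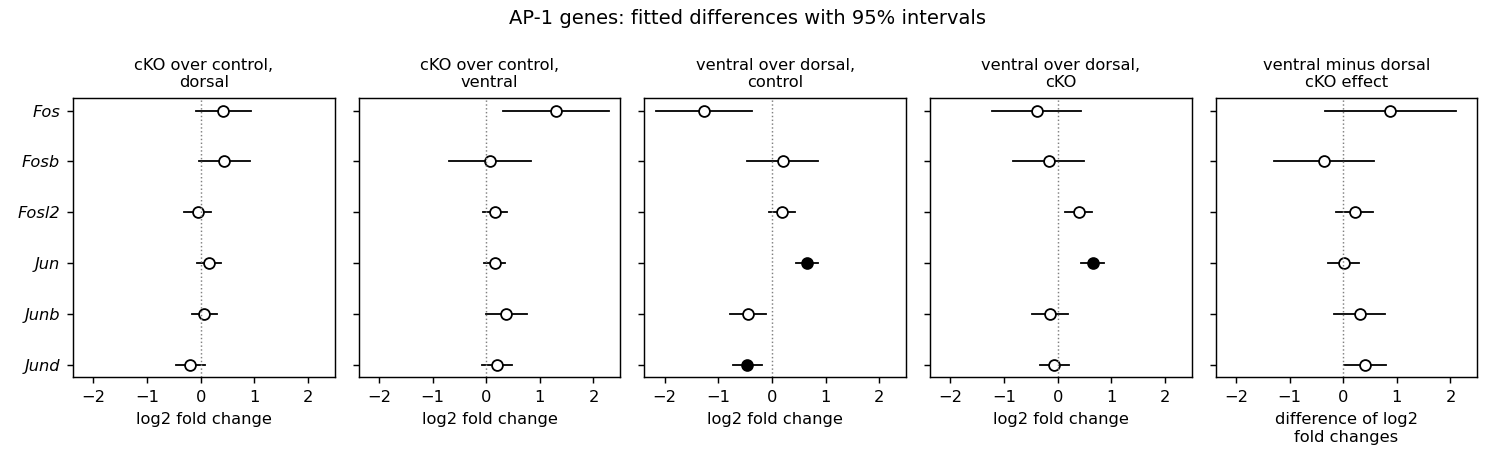
Log2 fold changes of the 6 tested AP-1 genes (points) with 95% intervals (lines) in 5 comparisons from edgeR's quasi-likelihood fit, with 0 as a dotted line; filled points passed the test at an adjusted p of 0.05. Filled points stand for Jun between regions in both genotypes and for Jund between regions in controls, and no point is filled in the panels of the genotype comparisons.

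Of the 6 tested AP-1 genes 0 passed the test between genotypes in either region, as did 0 of 15692 dorsal genes (0.0%) and 0 of 15102 ventral genes (0.0%). At an unadjusted p under 0.05, 0 of the 6 AP-1 genes in the dorsal hippocampus passed in edgeR, DESeq2 or limma-voom, against 769 genes (4.9%) in edgeR. Among ventral samples 1 of the 6 passed in edgeR (Fos), 1 in DESeq2 (Junb) and 2 in limma-voom (Fos and Junb), against 1092 genes (7.23%) in edgeR. All 6 ventral values were above 0, in edgeR with each of the scalings tried, with a median of 0.18 beside -0.000946 over all genes. The dorsal median was 0.11 beside 0.00357. The difference between the genotype effects of the regions was called for 0 of the 6 and for 0 of 16414 genes (0.0%; edgeR), while 1 of the 6 and 1307 genes (7.96%) had an unadjusted p under 0.05, and DESeq2 called 0 of the 6 and 34 genes.

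Between regions 2 of the 6 passed, Jun and Fosl2, both higher in the ventral hippocampus, against 2313 of 16414 genes (14.1%; 6.67% higher). At an unadjusted p under 0.05 there were 5 of the 6, against 26.7% of all genes: Jun and Fosl2 higher, and Fos, Junb and Jund lower in the ventral hippocampus. Among controls 2 of the 6 (Jun and Jund) passed against 7.86% of genes, and among cKO samples 1 (Jun) against 6.16%. The members of the Jun family therefore stood on both sides of 0, with Jun alone passing in the ventral direction.

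The different courses of Jun and Junb set the ratio between them. Junb per Jun, as a ratio of their CPM, was 1.11 ± 0.145 in the dorsal controls, 1.06 ± 0.131 in the dorsal cKO samples, 0.529 ± 0.154 in the ventral controls and 0.614 ± 0.134 in the ventral cKO samples (SD, n = 3). The lowest dorsal ratio was 0.951 and the highest ventral ratio 0.769, so the regions did not overlap. Jun alone already separated them, as 3.33% of genes did in that direction, so the ratio is not a separate result. Summed over all 7 genes, AP-1 transcripts took 281.2 ± 20.4 CPM in the dorsal controls, 304.1 ± 33.5 in the dorsal cKO samples, 295.7 ± 16.9 in the ventral controls and 346.6 ± 22.3 in the ventral cKO samples. The Fos family took 40.7 to 42.1% of this sum on average in each group. Within it Fos made up 7.82 ± 2.87% of the AP-1 sum in the dorsal controls and 10.2 ± 1.38% in the dorsal cKO samples, and 3.25 ± 2.61% and 6.56 ± 2.21% in the ventral groups.

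**Figure D3:**
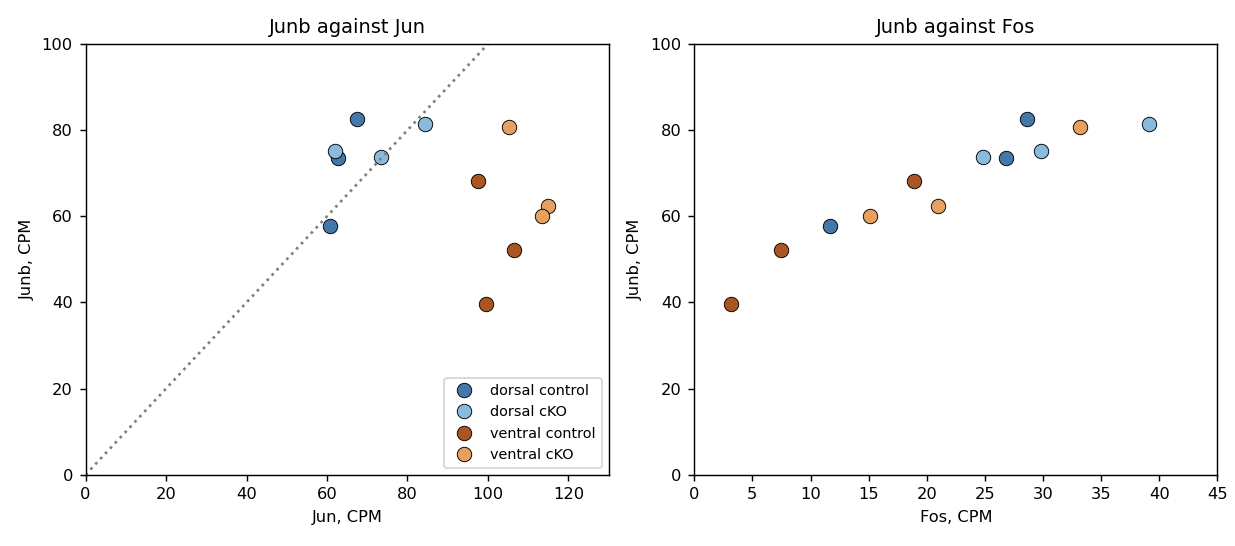
Junb in CPM against Jun (left) and against Fos (right), in CPM, with 1 point per sample, colours for the 4 groups and, at left, a dotted line where both are equal. Ventral samples lie to the right of the dorsal samples at left (Junb per Jun of at most 0.769), and at right Junb goes with Fos from 39.8 CPM at 3.15 CPM of Fos up to 82.5 CPM.

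Within a region the levels of several AP-1 genes went together over the 6 samples, in 30 relations computed on log2 CPM. Fos and Junb had a Pearson r of 0.985 in the ventral hippocampus (exact permutation test, two-sided p = 0.0042, adjusted over the 30 relations p = 0.0417), with a Spearman rho of 0.943 (exact permutation p = 0.0167, adjusted p = 0.125). Without the 2 samples farthest from the median of Fos, ventral controls 41 and 50, r was 0.931. In the dorsal hippocampus Fos and Junb had r = 0.935 (exact permutation p = 0.0444, adjusted p = 0.222) and rho = 0.714 (exact permutation p = 0.136, adjusted p = 0.51), and r was 0.348 without dorsal control 41 and cKO 64, so that the dorsal relation rests on those samples. Fos and Fosb went together in the dorsal hippocampus (r = 0.881, exact permutation p = 0.0042, adjusted p = 0.0417; rho = 0.943, exact permutation p = 0.0167, adjusted p = 0.125) and with r = 0.698 without the same 2 samples. Their ventral r was 0.436 (exact permutation p = 0.389, adjusted p = 0.729), with rho = 0.429 (exact permutation p = 0.419, adjusted p = 0.787).

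Jund went the other way from Fos in the dorsal hippocampus, with r = -0.891 (exact permutation p = 0.0014, adjusted p = 0.0417), rho = -1.0 (exact permutation p = 0.0028, adjusted p = 0.0833) and r = -0.903 without dorsal control 41 and cKO 64. The ventral r of Fos and Jund was 0.163 (exact permutation p = 0.762, adjusted p = 0.899), with rho = 0.371 (exact permutation p = 0.497, adjusted p = 0.829). Whether these relations differ between the regions was not tested. The 6 samples of a region fall into 3 controls and 3 cKO samples, too few for a correlation within a genotype. The permutations ran over all 6 samples of a region, so a genotype difference shared by both genes enters these p-values.

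**Figure D4:**
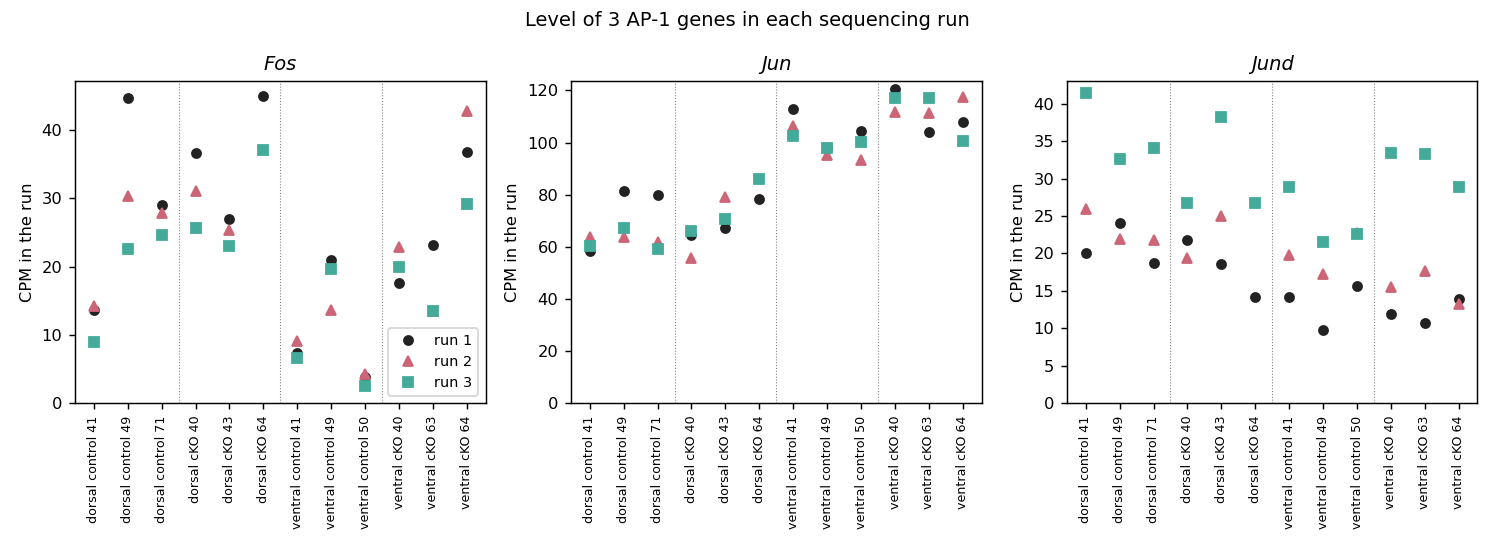
Level of Fos, Jun and Jund in CPM within each sequencing run (symbols), by sample, with dotted lines between the groups; dorsal cKO 64 has runs 1 and 3 here. For Jund run 3 lies above run 1 in all 12 samples, at a median of 2.04 times run 1, whereas for Jun it does so in 6 of 12.

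Runs of the same sample were used as a check of the measurement, since each sample was sequenced in up to 3 runs. Jund was above its run 1 level in run 3 in 12 of 12 samples, with a ratio of 1.23 to 3.09 and a median of 2.04, which was so in all 12 samples for 6.99% of genes. The chi-square per degree of freedom among runs of a sample was 8.59 for Jund, 2.21 for Fos, 1.71 for Junb, 1.32 for Fosb, 1.22 for Jun and 1.0 for Fosl2, where 1 is counting error alone. The summed level of Jund therefore depends on the share of a sample's counts that came from run 3, which was 37.6 to 45.9% for dorsal control, 38.2 to 75.3% for dorsal cKO, 45.1 to 67.0% for ventral control and 40.9 to 62.6% for ventral cKO. In run 1 alone the ventral genotype difference of Jund was -0.14. The part of the runs in the other differences of Jund was not tested. Fos was lower in run 3 than in run 1 in 11 of 12 samples, with a median ratio of 0.808. Junb was above its run 1 level in run 3 in only 1 of 12 samples, with a median ratio of 0.862. Of all genes 6.23% were lower in run 3 in all 12 samples, and the share for 11 or more is not given here. The part of the runs in the relation of Fos and Junb was not tested.

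Over all 12 samples and 16414 genes, the genes whose log2 CPM was most like that of Fos were Egr2 (Pearson r = 0.951), Cyr61 (0.938), Ythdc1 (0.931), Nr4a1 (0.927) and Sat1 (0.923). For Junb they were AC122356.1 (0.927) and Cyr61 (0.924), for Jun Nr2f2 (0.958) and Tenm4 (0.954), for Jund Atp6v0a2 (0.939) and Kcnk2 (0.927), for Fosl2 Mccc1os (0.907) and March9 (0.886), and for Fosb Rtl8a (0.895) and Ints9 (0.893). These are the highest values among many genes over points that share a region, a genotype and their depth, and they are given as a description.

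Other rapid immediate early genes, 25 genes transcribed soon after neuronal activity, are listed beside Fos, which responds to the same signals. Between regions 8 of the 25 passed the test and fell toward the ventral hippocampus and 0 rose, where 7.43% of all genes tested were called lower, with a median log2 difference of -0.26 beside 1.29e-05 over all genes. Among them were Egr1, a zinc finger transcription factor (-0.85 ± 0.12, edgeR adjusted p = 7.47e-05), and Arc, a regulator of AMPA receptor trafficking (-1.08 ± 0.16, adjusted p = 0.000137). Between ventral genotypes 0 passed and 17 of the 25 values were above 0, with a median of 0.19. At an unadjusted p under 0.05 in edgeR, 9 were higher and 1 lower, against 7.23% of all genes in either direction. Between dorsal genotypes 0 passed and 20 of the 25 were above 0, with a median of 0.11, and 4 higher and 0 lower had an unadjusted p under 0.05 (4.9% of all genes in either direction). Btg2, an antiproliferative gene, had the lowest dorsal p of these (0.61 ± 0.16, edgeR adjusted p = 0.678), at 11.8 ± 2.59 CPM for controls and 18.6 ± 1.54 CPM for cKO.

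Signalling genes that act on AP-1 differed between regions in both directions. Of 16 genes of the MAP kinase arm 6 passed and rose toward the ventral hippocampus and 0 fell (median 0.13; 6.67% of all genes were called higher), among them Rps6ka2, a ribosomal S6 kinase (0.71 ± 0.15, edgeR adjusted p = 0.004). Of 15 transcription factors and cofactors that act with SRF or CREB at the Fos promoter, Elk4, an SRF partner, passed and fell (-0.39 ± 0.06, edgeR adjusted p = 0.000231), with 0 that rose and a median of -0.12 (7.43% of all genes were called lower). Of 10 genes that limit AP-1 products 2 passed and fell toward the ventral hippocampus: Dusp6, a MAP kinase phosphatase (-0.39 ± 0.08, edgeR adjusted p = 0.00209), and Itch, a ubiquitin ligase that acts on Jun proteins (-0.37 ± 0.08, adjusted p = 0.00548). The median of these 10 was -0.38, and 7.43% of all genes were called lower. Between genotypes 0 genes of these 3 lists passed in either region. Between ventral genotypes 4 of the 10 limiting genes were higher at an unadjusted p under 0.05, with a list median of 0.26, led by Fbxw7, a ubiquitin ligase component (0.32 ± 0.09, edgeR adjusted p = 0.608), and Itch (0.40 ± 0.13, adjusted p = 0.608). Of all genes 7.23% were under this unadjusted threshold there, in either direction.

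Of 14 further bZIP genes whose products can pair with Fos or Jun proteins 9 were tested. Between regions 2 passed and fell toward the ventral hippocampus: Jdp2, which represses AP-1 sites as a partner of Jun (-0.55 ± 0.08, edgeR adjusted p = 0.000196), and Nfe2l2, the oxidative stress factor Nrf2 (-0.39 ± 0.12, adjusted p = 0.033). The median of the 9 was -0.19, 7.43% of all genes were called lower, and 0 of the 9 passed between genotypes. Atf4, of the integrated stress response, was at 0.25 ± 0.10 between ventral genotypes (edgeR adjusted p = 0.633).

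Genes described elsewhere as AP-1 targets stood on both sides of 0 between regions. Of 12 tested 1 passed and rose and 2 passed and fell toward the ventral hippocampus, the latter Penk, the enkephalin precursor (-0.66 ± 0.10, edgeR adjusted p = 0.000227), and Bdnf, a neurotrophin (-0.25 ± 0.08, adjusted p = 0.0448), with a median of -0.24. Of all genes 6.67% were called higher and 7.43% lower. Between genotypes 0 passed in either region. Scg2, a precursor of secreted neuropeptides, had the lowest p of this list in both: dorsal levels were 417.7 ± 17.9 CPM for controls and 343.3 ± 25.3 CPM for cKO (-0.32 ± 0.09, edgeR adjusted p = 0.76). Ventral Scg2 was at 252.1 ± 67.3 CPM for controls and 381.0 ± 31.3 CPM for cKO (0.62 ± 0.17, edgeR adjusted p = 0.608). These Scg2 effects differed by 0.94 ± 0.20, with an unadjusted p of 0.000251 that did not pass after adjustment (edgeR adjusted p = 0.335).

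Markers of other cells differed in level between the same groups. Of 16 markers of choroid plexus epithelium 15 were tested between ventral genotypes: 0 passed after adjustment and all 15 were lower in cKO (median -1.86). Of the 15, 13 had an unadjusted p under 0.05 in edgeR, against 7.23% of all genes in either direction. The summed level of the 16 was 3369 to 4724 CPM in the ventral controls but 215.5, 2636 and 179.4 CPM in ventral cKO samples 40, 63 and 64. Ttr, which defines this epithelium and makes up much of the sum, was at 40.1 CPM or more in every sample, while Kcnj13 and Kcne2 were each at 0 in 1 sample. Among ventral cKO samples, 63, with the most of these markers, had the least Fos. Among the ventral controls the order was the same for both: the sum was 4724, 4305 and 3369 CPM and Fos 18.9, 7.42 and 3.15 CPM in controls 49, 41 and 50. In the dorsal hippocampus the sum was high in control 49 (5100 CPM) and cKO 64 (3235 CPM) and 268.4 to 467.5 CPM in the other samples, and those 2 had the highest Fos level of their groups. Markers of excitatory hippocampal neurons, which check the labelled tissue, summed to 3759 CPM or more in every sample and none of the 8 was at 0. Their sum was 4589 ± 651.0 CPM in dorsal controls and 4050 ± 267.0 CPM in dorsal cKO samples (SD, n = 3). It was 4080 ± 212.9 CPM in ventral controls and 4538 ± 460.4 CPM in ventral cKO samples. In ventral cKO 7 of the 8 were higher and 1 lower (median 0.13), and in dorsal cKO 3 were higher and 5 lower (median -0.15). Between genotypes 0 of the 8 passed in either region. Toward the ventral hippocampus 1 of the 8 passed and rose and 2 passed and fell, where 6.67% of all genes were called higher and 7.43% lower. Between regions 7 of 7 oligodendrocyte markers passed and fell toward the ventral hippocampus (median -1.41), where 7.43% of all genes were called lower. Their sums were 7351 to 8889 CPM in dorsal and 2592 to 3456 CPM in ventral samples. The part of these cells in the AP-1 differences was not tested. Meningeal markers (7 measured) summed to 263.3 to 314.7 CPM in ventral controls and 157.5 to 221.8 CPM in ventral cKO samples. Of these 7 markers 6 were lower in ventral cKO (median -0.33), 2 of them at an unadjusted p under 0.05 (7.23% of all genes in either direction), among them Dcn (-0.49 ± 0.13, edgeR adjusted p = 0.608). In the dorsal hippocampus 4 of the 7 were higher. Of 6 ependymal markers tested, 6 were lower in ventral cKO (median -0.43) and 6 higher in dorsal cKO (median 0.42), with sums that overlapped between genotypes in both regions. Of 4 blood markers 4 were lower in cKO in both regions (median -0.62 dorsal and -0.45 ventral). The part of these markers in the AP-1 differences was likewise not tested. In the marker lists of meninges, ependyma, blood, endothelium, microglia, astrocytes and interneurons 0 genes passed between genotypes in either region. Between regions those that passed toward the dorsal hippocampus were 1 of 6 ependymal, 1 of 7 meningeal, 1 of 8 microglial, 1 of 7 astrocyte and 1 of 6 interneuron markers, 1 meningeal marker passed the other way, and 0 of 8 endothelial and 0 of 4 blood markers passed. With 7.43% of all genes called lower and 6.67% higher in the ventral hippocampus, these single calls are not read as results about the markers.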

How the data were processed

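The 12 samples were libraries of 3′ mRNA tags (QuantSeq) from 500 ng of RNA. The authors used cutadapt, HISAT2, featureCounts and edgeR with GRCm38, per the submitters' processing notes; versions, annotation release and strand setting are not given in the sources used here. The deposited tables hold whole-number counts per gene and run in 35 columns. They also hold, made by the authors, a scaled signal per run and, per the file headers, for each gene a log2 fold change, a p-value, a false discovery rate and a likelihood ratio score. The signal was not used. The labels' numbers name the samples.

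Each sample's runs (3, but 2 for dorsal cKO 64) were added up. Every pair of samples in a group differed by more than counting error. Genotype was tested within each region, and region and the interaction in 1 fit of all samples. These used the quasi-likelihood test of edgeR 4.0.16 (R 4.3.3), TMM, filterByExpr, trended dispersion and Benjamini-Hochberg adjustment at 0.05 over all genes tested. Tested on simulated data, the dorsal genotype fit recovered 71% of genes changed 2-fold, the ventral fit 74% and the region fit 90%. For genes changed 1.5-fold the shares were 50%, 46% and 59%. The simulation used the trended dispersion, so it does not carry the wider spread of a single gene such as Fos. Alternatives were DESeq2 1.42.0, limma-voom 3.58.1, other scalings and filters (none, or a mean of 10 counts), run 1 or run 3 alone, the sample number as a block, each sample left out, and, added after seeing the data, runs as separate libraries. Runs of the same sample are not independent replicates, so calls under that last setting do not measure the spread between samples. Likeness and correlations used log2 CPM with a prior count of 3. Correlations were tested with SciPy 1.17.1. Coordinates are from GENCODE M21, which held 99.88% of the gene identifiers, and promoters from RefSeq.

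The AP-1 genes and all lists were chosen with earlier results of these data known. Named beside them are the 2 genes with the lowest p of each list in a comparison described, the 5 genes most like Fos and the 2 most like each other member, and Tet3. Ttr is named from the choroid plexus list, and Kcnj13 and Kcne2 were named after their values were seen. A gene that this rule would name is not reported here.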

Additional observations from a re-analysis of the deposited data

How the results depend on the processing

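Depth limits Atf3 (1 to 4 counts) and Fosb (34 to 82 counts), and 3 samples a group limit every comparison: between genotypes the SE of log2 differences had a median of 0.151 (dorsal) and 0.161 (ventral). The cause of the changes below was not tested, except that single runs hold fewer counts and left-out samples shrink a group.

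AP-1 genes called between dorsal genotypes and in the interaction stayed at 0 under every alternative. Between ventral genotypes 1 was called with no filter and 1 with runs as separate libraries, and 0 without any sample. Between regions averaged over genotypes, 4 were called in run 1 alone and 4 with runs as separate libraries, and 1 to 4 when a sample was left out. Among cKO samples 2 were called with DESeq2, no filter, the sample number as a random block or runs as separate libraries, and 1 to 2 when a sample was left out. Among controls 1 was called with the fixed block and 4 with runs as separate libraries, and 1 to 3 when a sample was left out.

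Over all genes, calls between dorsal genotypes numbered 22 with DESeq2, 94 with no filter, 1 in run 1 alone and 51 with runs as separate libraries, and 0 to 25 with a sample left out (25 without dorsal control 49). Between ventral genotypes they numbered 9, 302, 3 and 399 in the same order, and 0 to 55 (55 without ventral cKO 63). The interaction had 34 with DESeq2, 13 with no filter and 456 with runs as separate libraries, and 0 to 4 with a sample left out. Between regions there were 1149 in run 1 alone and 4002 with runs as separate libraries, among cKO samples 423 and 2579, and among controls 675 and 3221. Leaving out a sample gave 1838 to 2261, 644 to 1067 and 794 to 1292 for these 3 comparisons.

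The labels give both regions the numbers 40, 41, 49 and 64, and for these numbers the correlations of the samples' deviations from their group means were 0.0375, 0.119, 0.0659 and -0.114. Deviations from means of 3 samples in separate dissections cannot show whether samples with the same number came from the same animal. The main fit treated such samples as independent, and the block fits are given beside it. With the number as a fixed replicate block, 1411 genes were called between regions, 643 among controls and 513 among cKO samples. The consensus correlation for the random block was 0.0583.

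Several small differences changed sign. For Fosb the averaged region difference was -0.10 with limma-voom, -0.075 with the fixed block, -0.11 with the random block, -0.082 in run 3 alone and -0.026 with runs as separate libraries. Leaving out a sample moved it from -0.22 to 0.21. Among controls Fosb was at -0.063 with limma-voom, -0.059 with the random block and -0.10 in run 3 alone, and at -0.27 to 0.58 with a sample left out. Its interaction was 0.039 in run 3 alone and -0.74 to 0.10 with a sample left out, and its ventral genotype difference -0.31 to 0.54. The dorsal genotype difference of Fosl2 was 0.015 in run 1 alone and -0.16 to 0.048 with a sample left out, that of Jun -0.080 in run 1 alone, and that of Junb -0.055 to 0.16 with a sample left out. The Jun interaction was -0.057 by library size alone, -0.00037 with no filter, -0.037 in run 3 alone, -0.021 by upper quartile and -0.088 to 0.11 with a sample left out. For Jund the ventral genotype difference was -0.14 in run 1 alone. Its region difference among cKO samples was 0.0035 with the fixed block, 0.098 in run 3 alone and -0.12 to 0.061 with a sample left out. Tet3 between ventral genotypes was at -0.050 in run 3 alone and -0.086 to 0.20 with a sample left out, and its interaction at -0.25 to 0.033.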
